A study of Zea mays with 20 samples.

Results

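Messenger RNA of 5 cell wall genes of maize was followed through 20 libraries in which the meristem regulator KNOTTED1 was gained in leaves or lost in shoot tips and inflorescences. The 5 genes were a pair that encode cellulose synthase subunits, CesA-4 with the identifier GRMZM2G424832 and CesA-2 with GRMZM2G027723, the xyloglucan endotransglucosylase gene xth1 (GRMZM2G119783), and 2 beta-expansin genes, expB2 (GRMZM2G021621) and expB8 (GRMZM2G013002). They are 5 of the 39656 genes in the count table. An earlier reading of these same counts had picked CesA-4, CesA-2 and xth1 for their levels in Kn1-N leaf, and expB2 and expB8 for their levels in kn1-e1 tassel. Values in those contrasts are therefore given as a description without a test, and tests are given only in the other contrasts.

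The plant cell wall is a network of cellulose fibres held in a matrix of other polysaccharides. Cellulose synthase subunits sit together in complexes of the plasma membrane and spin the cellulose chains; some subunits serve the thin primary wall of growing cells and others the thick secondary wall of vessels and fibres. Xyloglucan endotransglucosylases cut and rejoin xyloglucan chains that coat the fibres. Expansins loosen the contacts between wall polymers in acidic walls so that a cell can extend; the beta class is large in grasses, and one branch of it is known as grass pollen allergens. KNOTTED1, the product of kn1, is a KNOX homeobox transcription factor that keeps shoot meristem cells undetermined and is normally absent from leaves, and its dominant alleles cause knots of extra growth along leaf veins.

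All plants were in the B73 inbred. Young leaves came from Kn1-N/Kn1-N, Kn1-N/+ and +/+ plants (2 libraries each) grown in flat trays in a greenhouse for 10 days after germination; each was a tube of 1 to 2 mm by 7 to 8 mm that began 2 to 3 mm above the shoot apical meristem (SAM). Field-grown tassel primordia came from kn1-e1/kn1-e1 plants at 2 to 3 mm and from controls at 4 to 5.5 mm (3 libraries each, pools of 10). Field-grown ear primordia were 4 to 5 mm in kn1-e1/kn1-e1 and 7 to 8 mm in controls (2 libraries each, pools of 6 to 8). SAM samples (2 libraries each, pools of 15) were taken from greenhouse plants in large pots 19 days after germination. They held the youngest leaf primordia as well as the meristem, because the cut was made under the fourth primordium. The controls of these 3 tissues are titled wild type, carry the genotype label kn1-e1/+, and are given in the design as heterozygotes or wild type of the same families. Mutant tassels and ears were shorter than their controls, so genotype and organ size cannot be told apart there. The design calls the libraries biological replicates and says no more of how they were separated, so p-values measure the spread between these libraries.

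Libraries held 16068246 to 20722952 counts. The kn1 transcript followed the labels: it stood at 10.4 and 11.5 CPM (counts scaled to equal library size and composition over all 20 libraries) in Kn1-N/Kn1-N leaf and at 5.27 and 6.37 in Kn1-N/+ leaf, and the +/+ leaves together gave 1 count. Its log2 fold change in kn1-e1 was -2.12 ± 0.12 (SE) for tassel, -1.98 ± 0.06 for ear and -1.66 ± 0.13 for SAM. The control SAM libraries differed from each other more than any other replicate pair, with a chi-square per degree of freedom of 13.2 against 1.87 to 5.85. A summed list of 10 green leaf genes stood at 670 to 876 CPM in leaf and 20.5 to 55.0 CPM elsewhere. A list of 7 meristem genes ran the other way, from 25.2 to 36.8 CPM in leaf to 138 to 166 in SAM, 578 to 733 in tassel and 635 to 802 in ear.

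**Figure D1:**
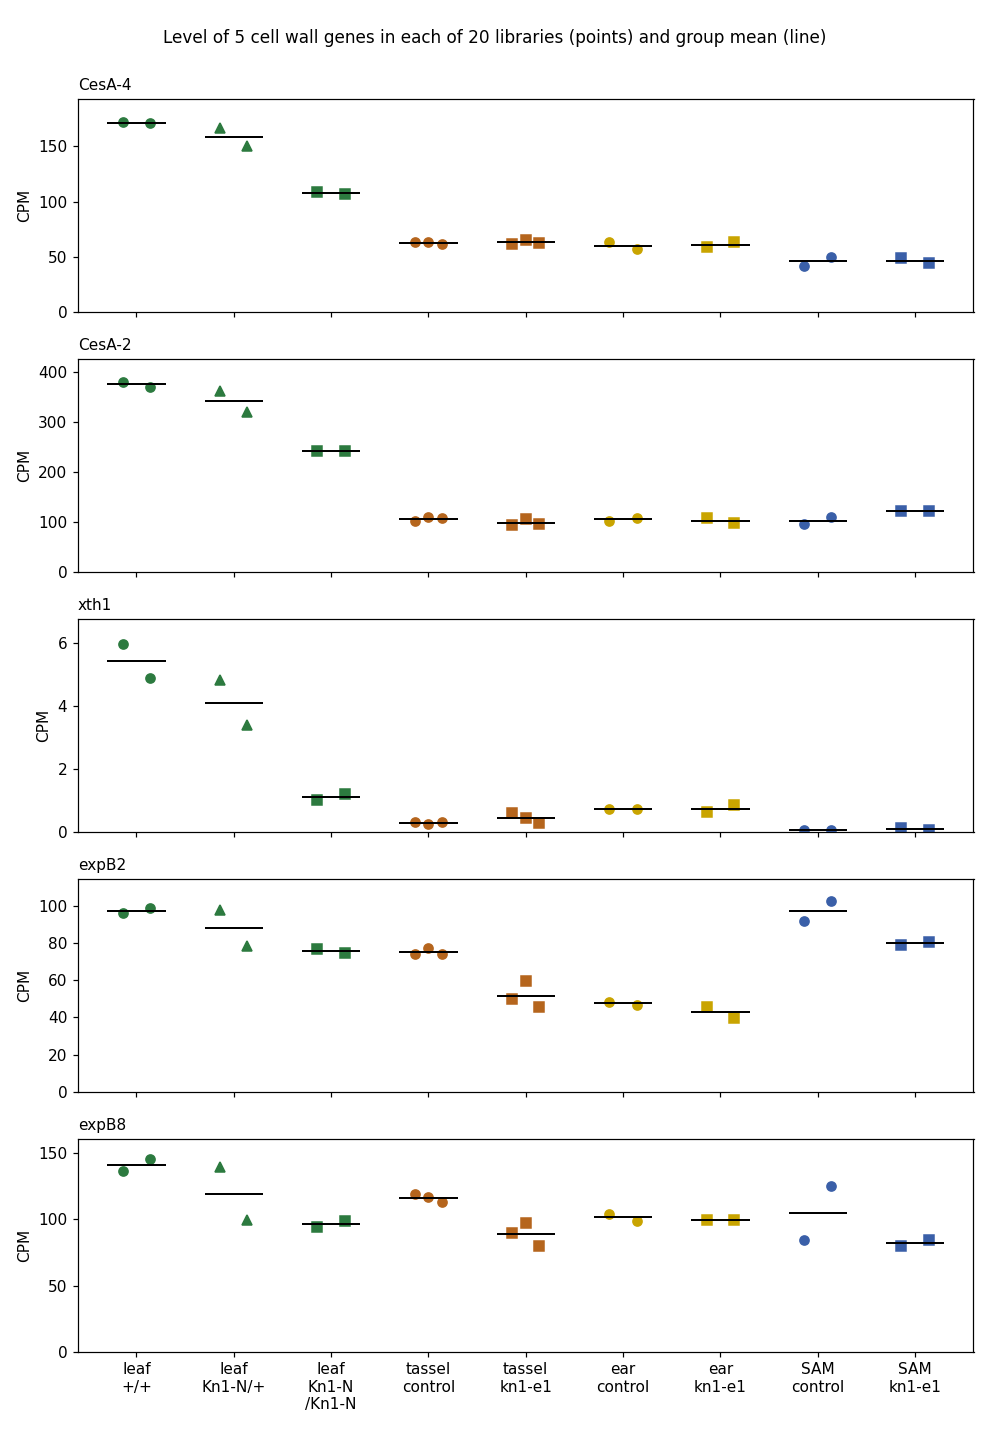
Level of each of the 5 genes, in CPM, in every library (points) with the group mean (line); panels are genes, columns are groups, and each axis starts at 0. CesA-4, CesA-2 and xth1 stand apart in leaf, where Kn1-N/Kn1-N lies below the other genotypes, whereas expB2 and expB8 keep within a narrower range over all tissues.

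The cellulose synthase transcripts were most abundant in +/+ and Kn1-N/+ leaf and lower in leaf with 2 copies of Kn1-N. CesA-4, a catalytic subunit of the cellulose synthase complex, stood at 172 and 171 CPM in +/+ leaf, at 167 and 149.9 in Kn1-N/+ leaf and at 109 and 107 in Kn1-N/Kn1-N leaf. CesA-2, another such subunit, stood at 379.96 and 371 CPM in +/+, 363 and 321 in Kn1-N/+ and 243 and 243 in Kn1-N/Kn1-N. Both Kn1-N/Kn1-N libraries were therefore the lowest leaf libraries for both genes, and the 3 genotypes did not overlap; 32.8% of all genes were lower without overlap in Kn1-N/Kn1-N than in +/+, 27.3% in Kn1-N/Kn1-N than in Kn1-N/+ and 17.4% in Kn1-N/+ than in +/+. In Kn1-N/Kn1-N against +/+, the log2 fold change was -0.65 ± 0.06 for CesA-4 and -0.62 ± 0.06 for CesA-2. In Kn1-N/+ against +/+, it was -0.11 ± 0.06 and -0.13 ± 0.06, and these values moved with the heterozygous library kept, to -0.17 and -0.21 without heterozygote 1 and to -0.044 and -0.054 without heterozygote 2. Most of the distance between +/+ and Kn1-N/Kn1-N thus lay between the heterozygote and the homozygote, at -0.55 ± 0.06 and -0.49 ± 0.06. The pick of both genes used these contrasts, which also share libraries, so no test is given. CesA genes form a family of similar sequences, and no source used here says how reads that match several of its members were counted.

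The fold was largest for the least abundant gene, xth1, whose product remodels xyloglucan. It had 111 and 88 counts in +/+ leaf, 94 and 67 in Kn1-N/+ and 16 and 23 in Kn1-N/Kn1-N, which is 5.95 and 4.87, 4.81 and 3.39, and 1.02 and 1.19 CPM. In CPM the 3 genotypes again did not overlap, although the counts of 1 Kn1-N/+ and 1 +/+ library did. The log2 fold change was -2.26 ± 0.26 for Kn1-N/Kn1-N against +/+, -1.86 ± 0.27 against Kn1-N/+ and -0.40 ± 0.20 for Kn1-N/+ against +/+. The last value was -0.66 without heterozygote 1, -0.18 without heterozygote 2 and -0.24 without +/+ replicate 1. These values too are those that the gene was picked on.

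The beta-expansins were not picked on leaf, and both fell there in Kn1-N/Kn1-N. expB2 stood at 96.1 and 98.7 CPM in +/+, 97.6 and 78.3 in Kn1-N/+ and 77.0 and 74.4 in Kn1-N/Kn1-N. expB8 stood at 136 and 145 CPM in +/+, 139 and 99.6 in Kn1-N/+ and 94.2 and 98.6 in Kn1-N/Kn1-N. In both genes the homozygotes lay below every other leaf library, with the nearest pair for expB8 at 98.6 and 99.6 CPM. Of all genes, 32.8% were lower without overlap in Kn1-N/Kn1-N than in +/+, and 27.3% than in Kn1-N/+. The share of genes lower than both at once was not computed. The heterozygotes were split, with replicate 1 at the +/+ level and replicate 2 close to the homozygotes.

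Between Kn1-N/Kn1-N and +/+ leaf, expB2 averaged 75.7 ± 1.84 against 97.4 ± 1.81 CPM (SD, n = 2), a log2 fold change of -0.35 ± 0.08 (edgeR quasi-likelihood test, Benjamini-Hochberg adjusted p = 0.011). expB8 averaged 96.4 ± 3.13 against 141 ± 6.37 CPM, a log2 fold change of -0.53 ± 0.11 (edgeR adjusted p = 0.0048). So 2 of the 2 genes that could be tested were called lower, in a contrast where 9.59% of 22071 genes were called lower. Neither call held in every fit with 1 library left out, and each such fit leaves 1 library in a group. The expB2 call was lost whichever of the 4 libraries was left out, and the expB8 call was lost without +/+ replicate 2. The fold changes themselves stayed between -0.38 and -0.33 for expB2 and between -0.58 and -0.49 for expB8.

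One copy of Kn1-N gave no call for either expansin. The log2 fold change of Kn1-N/+ against +/+ was -0.14 ± 0.08 for expB2 (95% interval -0.32 to 0.03, edgeR adjusted p = 0.76) and -0.24 ± 0.11 for expB8 (-0.46 to -0.01, adjusted p = 0.69); 0.145% of all genes were called there. Kn1-N/Kn1-N against Kn1-N/+ gave -0.21 ± 0.08 for expB2 (adjusted p = 0.17) and -0.30 ± 0.11 for expB8 (adjusted p = 0.13), where 4.75% of genes were called. The 2 heterozygous libraries decided these values. Without heterozygote 1, expB2 was -0.30 and expB8 -0.48 against +/+. Without heterozygote 2, the log2 fold change of Kn1-N/Kn1-N against the remaining heterozygote was -0.35 for expB2 and -0.52 for expB8. These fits leave 1 heterozygous library, so only the fold change is given.

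Markers of other cells and of handling were read in the same leaves. A list of 5 genes of secondary walls summed to 86.6 to 92.5 CPM in Kn1-N/Kn1-N, 87.0 to 88.1 in Kn1-N/+ and 84.1 to 87.8 in +/+, with 2 of the 5 at 0 in each group and none of the 3 tested called. Green leaf genes summed to 840 to 848 CPM in Kn1-N/Kn1-N and 670 to 876 in +/+. In that contrast 2 of 10 were called lower, beside 9.59% of all genes. A list of 4 heat shock genes, which respond to handling and heat, summed to 84.6 to 120 CPM in Kn1-N/Kn1-N. The sums were 23.4 to 55.6 in +/+ and 27.0 to 43.0 in Kn1-N/+. In Kn1-N/Kn1-N against +/+, 4 of 4 were called higher, beside 9.16% of all genes. The part of that difference in the wall gene values was not tested. In whole organs, fewer cells of a type and less RNA per cell cannot be told apart.

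**Figure D2:**
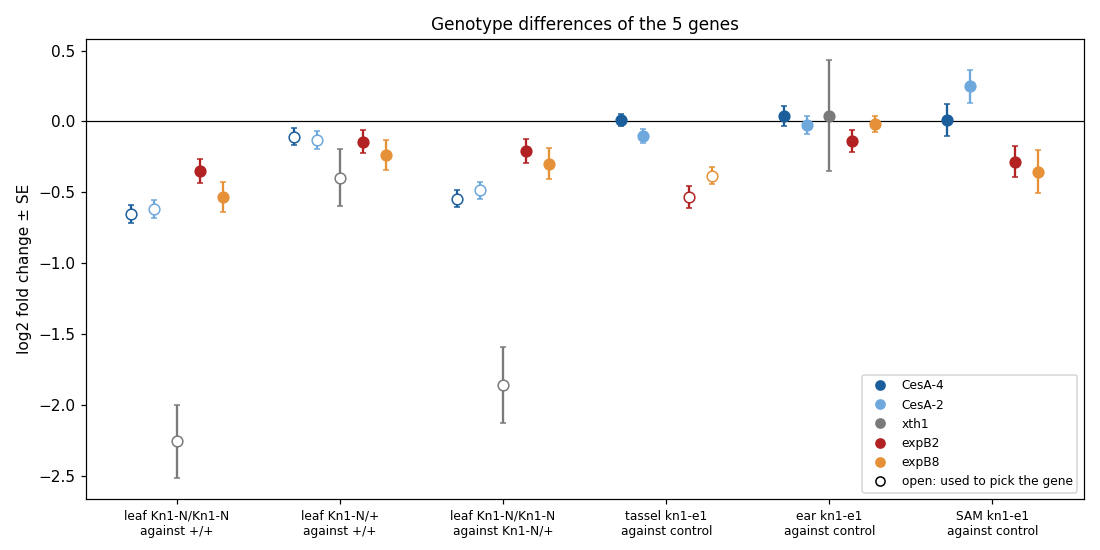
Genotype difference of each gene, as log2 fold change ± SE, in 6 comparisons; open circles are contrasts that the gene was picked on and filled circles are tested ones. xth1 is shown where it passed the low-count filter. The leaf Kn1-N/Kn1-N values of all 5 genes lie below 0, whereas in tassel, ear and SAM the cellulose synthases lie near or above 0 except for CesA-2 in tassel.

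In the tassel primordium the expansins were lower in kn1-e1 than in controls, which is what they were picked on, and the cellulose synthases were not called. expB2 stood at 50.01, 59.6 and 45.7 CPM in kn1-e1 and at 73.8, 77.2 and 74.0 in controls. expB8 stood at 89.5, 97.2 and 80.1 CPM in kn1-e1 and at 119, 117 and 113 in controls. For both genes all 3 mutant libraries lay below all 3 controls, with replicate 2 the highest mutant library; 14.4% of all genes showed that order. The log2 fold changes were -0.53 ± 0.08 and -0.38 ± 0.06. Markers moved in the same tassels, where 5.55% of all genes were called lower and 2.34% higher. Of 6 tested floral organ genes, 4 were called lower and 1 higher. The 10 listed summed to 33.1 to 34.6 CPM in kn1-e1 against 50.7 to 56.3 in controls, with 2 of the 10 at 0 in kn1-e1. Of 7 meristem genes, a list that includes kn1 itself, 3 were called lower and 1 higher, with sums of 578 to 635 against 727 to 733 CPM. Heat shock genes overlapped, at 33.2 to 46.9 against 30.8 to 40.001 CPM. The part of these markers in the wall gene values was not tested.

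CesA-4 in tassel kept to a narrow range, at 61.4, 65.3 and 62.7 CPM in kn1-e1 and 63.1, 63.8 and 61.8 in controls. Its groups overlapped, with a log2 fold change of 0.01 ± 0.04 (95% interval -0.08 to 0.10, edgeR adjusted p = 0.93). CesA-2 stood at 93.6, 105 and 97.2 CPM against 103, 109.6 and 107, and the groups overlapped through mutant replicate 2. Its log2 fold change was -0.11 ± 0.05 (95% interval -0.21 to 0.00, edgeR adjusted p = 0.24). So 0 of 2 tested genes were called by edgeR or DESeq2, where edgeR called 7.9% of 21117 genes. Unadjusted edgeR p was under 0.05 for 0 of the 2, beside 4578 of the 21117 genes. Over the 6 fits with 1 library left out, the CesA-2 value ran from -0.15 to -0.07, with edgeR adjusted p from 0.045 to 0.52. xth1 was too low for the fit, with 11, 8 and 6 counts in kn1-e1 and 6, 5 and 6 in controls. The ratio of its summed, size-scaled counts was 1.495 with an exact 95% interval of 0.776 to 2.95, which covers counting error only.

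In the ear primordium none of the 5 genes was called by edgeR or DESeq2, in a comparison where edgeR called 18.6% of 21281 genes. Unadjusted edgeR p was under 0.05 for 0 of the 5, beside 6876 of the 21281 genes. CesA-4 stood at 58.6 and 63.5 CPM in kn1-e1 and 63.1 and 56.9 in controls, and CesA-2 at 108 and 97.7 against 103 and 108. The groups of both overlapped, and the log2 fold changes were 0.04 ± 0.07 (95% interval -0.11 to 0.19, edgeR adjusted p = 0.76) and -0.02 ± 0.06 (-0.16 to 0.11, adjusted p = 0.83). xth1 had 14 and 17 counts in kn1-e1 and 12 and 14 in controls, for a log2 fold change of 0.04 ± 0.39 (edgeR adjusted p = 0.96). The 95% interval of that change ran from -0.80 to 0.89.

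Of the expansins in ear, expB2 stood at 45.8 and 39.8 CPM in kn1-e1 and at 48.2 and 46.8 in controls, so both mutants lay below both controls, as for 31.5% of genes in ear. Its log2 fold change was -0.14 ± 0.08 (95% interval -0.30 to 0.03, edgeR adjusted p = 0.23), and ran from -0.25 to -0.04 with 1 library left out. Each such fit leaves 1 library in a group, so only the fold change is given. expB8 stood at 99.4 and 99.6 CPM in kn1-e1 and at 104 and 99.1 in controls, which overlapped, with a log2 fold change of -0.02 ± 0.06 (95% interval -0.14 to 0.10, adjusted p = 0.86). Markers moved in the same ears, where 10.4% of all genes were called lower and 8.21% higher. All 8 of 8 tested floral organ genes were called lower, with sums of 90.7 to 100.02 against 297 to 325 CPM. Of the green leaf genes, 5 of 7 were called higher, with sums of 44.3 to 45.7 against 20.5 to 23.2 CPM. Heat shock genes summed to 71.3 to 167 CPM in kn1-e1 ears against 37.1 to 44.3 in controls. Their part in the wall gene values was not tested.

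In SAM none of the 4 genes tested was called by edgeR or DESeq2, where edgeR called 0.164% of 20748 genes. Unadjusted edgeR p was under 0.05 for 2 of the 4, beside 981 of the 20748 genes. expB2 stood at 79.05 and 80.5 CPM in kn1-e1 and 91.9 and 103 in controls, and expB8 at 79.6 and 84.1 against 84.5 and 125. Both genes were lower in both mutant libraries, as were 17.2% of all genes, though for expB8 by less than 1 CPM at the nearest pair. The log2 fold changes were -0.29 ± 0.11 for expB2 (95% interval -0.52 to -0.05, edgeR adjusted p = 0.95) and -0.35 ± 0.15 for expB8 (-0.68 to -0.03, adjusted p = 0.95). The expB8 value rested on the 2 discordant control libraries, and was -0.61 without control 1 and -0.04 without control 2. These fits leave 1 control library, so only the fold change is given.

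CesA-2 in SAM was the only one of the 5 genes with both mutant libraries above both controls, at 123 and 122 CPM in kn1-e1 and 95.7 and 110.3 in controls; 16.6% of all genes showed that order. The log2 fold change was 0.25 ± 0.12 (95% interval 0.00 to 0.50, edgeR adjusted p = 0.95). It ran from 0.15 to 0.36 over the 4 fits with 1 library left out, each of which leaves 1 library in a group, so only the fold change is given. CesA-4 stood at 48.7 and 44.3 CPM against 42.1 and 50.3, with overlapping groups and a log2 fold change of 0.01 ± 0.11 (95% interval -0.23 to 0.26, adjusted p = 0.997). xth1 was close to absent, with 2 and 1 counts in kn1-e1 and 1 and 1 in controls, a ratio of 1.47 with an exact 95% interval of 0.169 to 17.6. The 4 heat shock genes summed to 63.5 to 86.1 CPM in kn1-e1 SAM and 191 to 265 in controls. There 4 of 4 were called lower, beside 25 of 20748 genes. The part of the heat shock difference in these values was not tested.

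Whether the kn1-e1 difference of a gene itself varied between tissues was tested by contrasts of mutant-to-control differences, fitted jointly over 14 libraries. Of the 8 contrasts tested for CesA-4, CesA-2, expB2 and expB8, 0 were called by edgeR or DESeq2. Over 22387 genes, edgeR called 5.22% for ear against tassel, 1.18% for SAM against tassel and 5.47% for SAM against ear. Unadjusted edgeR p was under 0.05 in 2 of the 8 contrasts, beside 4665, 2970 and 4757 of the 22387 genes in the same order. The CesA-2 difference in SAM exceeded that in tassel by 0.36 ± 0.10 (edgeR adjusted p = 0.095) and that in ear by 0.30 ± 0.11 (adjusted p = 0.12). With 1 library left out, the CesA-2 values ran from 0.26 to 0.44 for SAM minus tassel and from 0.18 to 0.37 for SAM minus ear. For CesA-4 the same contrasts were 0.01 ± 0.11 and -0.00 ± 0.12 (adjusted p = 0.98 and 1.00). For expB8, SAM minus ear was -0.31 ± 0.17 (edgeR adjusted p = 0.31), and ran from -0.58 to -0.04 with 1 library left out. For expB2, SAM minus ear was -0.12 ± 0.14 (edgeR adjusted p = 0.66). The expansin contrasts that involve tassel used the pick: ear minus tassel was 0.38 ± 0.13 for expB2 and 0.35 ± 0.15 for expB8, and SAM minus tassel 0.25 ± 0.12 and 0.04 ± 0.16. The last of these was -0.22 without SAM control 1 and 0.32 without SAM control 2.

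Across the control tissues the cellulose synthases and xth1 stood highest in leaf, and the expansins spanned a narrower range. These contrasts came from 1 fit of all 20 libraries. Tissue there goes together with age, with growth in greenhouse or field and with the genotype label, and cannot be told apart from them. The +/+ leaf libraries had a part in the pick of CesA-4, CesA-2 and xth1, and the control tassels in that of expB2 and expB8, so contrasts with those libraries are described for those genes and not tested.

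For CesA-4 the order was leaf (171 ± 0.667 CPM, SD, n = 2), tassel (62.9 ± 1.02, n = 3), ear (60.01 ± 4.41, n = 2) and SAM (46.2 ± 5.78, n = 2). Leaf exceeded the others by 1.44 ± 0.07 (tassel), 1.51 ± 0.08 (ear) and 1.89 ± 0.08 (SAM) on the log2 scale. SAM stood at -0.45 ± 0.07 against tassel (edgeR adjusted p = 2.3e-05) and at -0.38 ± 0.08 against ear (adjusted p = 0.00051). Tassel and ear, neighbours in the order, differed by 0.07 ± 0.07 (adjusted p = 0.48). For CesA-2, leaf at 376 ± 6.10 CPM exceeded tassel, ear and SAM by 1.82 ± 0.07, 1.84 ± 0.08 and 1.87 ± 0.08 on the log2 scale. Tassel, ear and SAM stood at 107 ± 3.53, 105 ± 3.63 and 103 ± 10.3 CPM, and their log2 differences of 0.02 (tassel minus ear), -0.05 (SAM minus tassel) and -0.03 (SAM minus ear) were not called (edgeR adjusted p = 0.57 to 0.87). SAM was called lower than tassel for 28.4% and lower than ear for 25.4%.

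The widest spread belonged to xth1. Its summed counts were 199 in +/+ leaf, 26 in control ear, 17 in control tassel and 2 in control SAM. As size-scaled ratios with exact 95% intervals, leaf over ear was 7.504 (4.97 to 11.8), leaf over tassel 18.2 (11.1 to 31.8) and leaf over SAM 98.1 (26.8 to 816). Tassel over ear was 0.413 (0.2101 to 0.790), SAM over ear 0.0765 (0.0088 to 0.306) and SAM over tassel 0.185 (0.0208 to 0.781). These intervals cover counting error only, and no test is given, because the gene passed the low-count filter of the 20-library fit through the groups in which it was high.

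For expB2, +/+ leaf and control SAM were level at 97.4 ± 1.81 and 97.3 ± 7.63 CPM, a log2 difference of 0.00 ± 0.10 (95% interval -0.20 to 0.21, edgeR adjusted p = 0.99). Tassel followed at 75.0 ± 1.91 CPM and ear at 47.5 ± 1.01. Leaf exceeded ear by 1.04 ± 0.10 (edgeR adjusted p = 5.6e-09; 35.3% of genes were called higher in leaf), and SAM exceeded ear by 1.03 ± 0.10 (adjusted p = 2.0e-08; 23.4% were called higher in SAM). As a description, leaf stood 0.38 ± 0.09 and SAM 0.37 ± 0.09 above tassel on the log2 scale, and tassel 0.66 ± 0.10 above ear.

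expB8 varied least over the control tissues, from 141 ± 6.37 CPM in leaf through 116 ± 3.11 in tassel and 105 ± 28.6 in SAM to 101 ± 3.50 in ear. Leaf exceeded ear by 0.47 ± 0.13 (edgeR adjusted p = 0.0029) and SAM by 0.43 ± 0.13 (adjusted p = 0.0055; 37.3% of genes were called higher in leaf than in SAM). SAM and ear overlapped and their difference of 0.04 ± 0.13 was not called (adjusted p = 0.82). As a description, leaf stood 0.28 ± 0.12 above tassel and tassel 0.20 ± 0.12 above ear on the log2 scale, while SAM was -0.16 ± 0.12 against tassel, which it overlapped. SAM moved to 0.11 against tassel without its control 1 and to -0.44 without control 2. With control 1 left out, the leaf excess over SAM was 0.18, and SAM exceeded ear by 0.30. With control 2 left out, SAM stood at -0.25 against ear. These fits leave 1 control SAM library, so only the fold change is given.

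**Figure D3:**
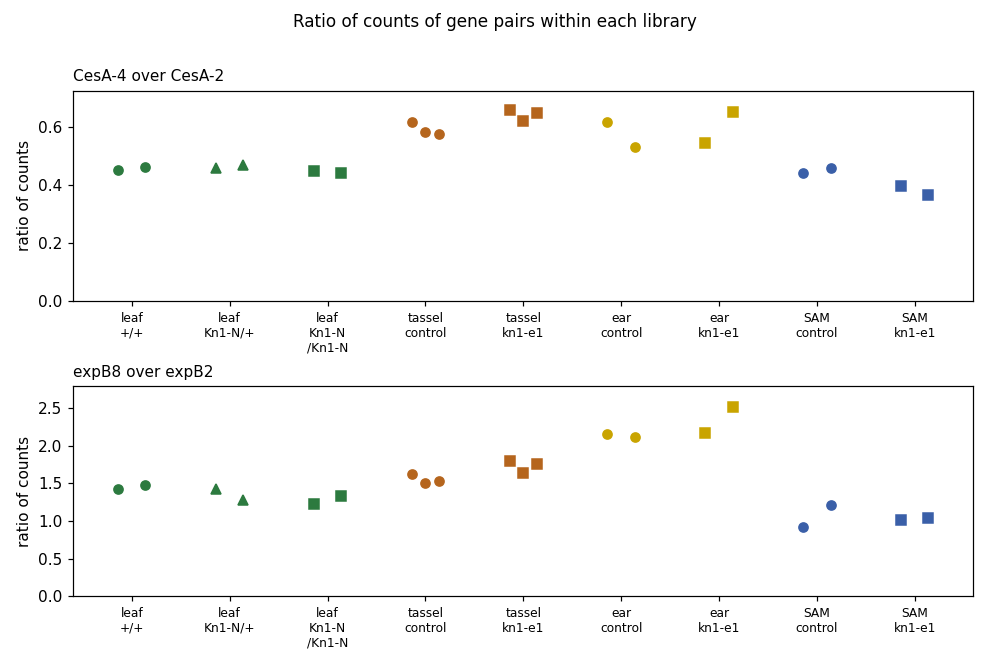
Ratio of counts of 2 genes within the same library, for CesA-4 over CesA-2 and for expB8 over expB2; each point is a library and each axis starts at 0. The CesA ratio stays at 0.440 to 0.468 in all 6 leaf libraries, and the expansin ratio is highest in ear.

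Within a library the ratio of counts of one gene to another does not depend on library size, and it shows which genes kept step; the counts are not divided by gene length, so it compares libraries and not the abundance of the genes. CesA-4 over CesA-2 ran from 0.440 to 0.448 in Kn1-N/Kn1-N leaf, 0.459 to 0.468 in Kn1-N/+ and 0.452 to 0.460 in +/+. It was 0.576 to 0.614 in control and 0.619 to 0.656 in kn1-e1 tassel, 0.528 to 0.615 and 0.544 to 0.651 in ear, and 0.440 to 0.456 and 0.365 to 0.396 in SAM. The mutant libraries thus lay above the controls in tassel, overlapped them in ear and lay below them in SAM. The share of other gene pairs whose ratio separates the groups in this way was not computed. expB8 over expB2 was 1.22 to 1.33 in Kn1-N/Kn1-N leaf, 1.27 to 1.43 in Kn1-N/+, which overlapped both other genotypes, and 1.42 to 1.47 in +/+. The expansin ratio was 1.51 to 1.62 in control and 1.63 to 1.79 in kn1-e1 tassel, the tissue both genes were picked on. It was 2.12 to 2.16 and 2.17 to 2.50 in ear, and 0.920 to 1.22 and 1.01 to 1.04 in SAM. The mutant libraries thus lay above the controls in tassel and ear and within their range in SAM. Here too the share of other gene pairs was not computed.

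Over the 20 libraries, log2 CPM of CesA-4 and CesA-2 had a Pearson correlation of 0.943, CesA-4 and xth1 of 0.943, and CesA-2 and xth1 of 0.835, while expB2 and expB8 had 0.472. These libraries share tissues and genotypes, and the leaf libraries stand apart from the rest, so the values describe this set only. Among the 23679 genes of the 20-library fit, the profile most like CesA-4 was that of GRMZM2G154328 (r = 0.996), followed by GRMZM2G058456 and GRMZM2G044900 (both 0.988). Most like CesA-2 were GRMZM2G045215 (0.993), GRMZM2G017869 (0.993) and GRMZM2G102347 (0.992). For xth1 they were GRMZM2G027886 (0.978), GRMZM2G134308 (0.976) and GRMZM2G144739 (0.968). The nearest profiles to expB2 were GRMZM2G047456 and GRMZM2G406099 (both 0.940) and GRMZM2G061487, named dbf1 (0.935). Those to expB8 were less close, at 0.828 for GRMZM2G087275, 0.787 for GRMZM2G322001 and 0.776 for GRMZM2G330453.

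The wider cell wall set was a list of 31 other genes by name: 13 CesA, 2 cellulose synthase-like (Csl), 1 xyloglucan endotransglycosylase (xet1), 5 alpha-expansin, 9 beta-expansin genes and bk2, a COBRA-like gene of stalk strength. Of the 19 that passed the low-count filter in leaf, 10 were lower and 0 higher in Kn1-N/Kn1-N than in +/+, beside 9.59 and 9.16% of all genes. Their median log2 fold change was -0.47 against 0.01 for all genes tested. The lower genes included CesA-7 (-0.61 ± 0.07, edgeR adjusted p = 0.00010), CesA-8 (-0.53 ± 0.06, adjusted p = 9.5e-05) and CslF6-1, a gene of mixed-linkage glucan synthesis (-0.65 ± 0.08, adjusted p = 0.00023). Among the 9 CesA genes tested, CesA-1, CesA-6 and CesA-9 were the other members called lower, at -0.42, -0.47 and -0.66. Values of CesA-9 are those of GRMZM2G018241, since GRMZM2G150404 of the same name did not pass the filter in leaf. The name cesa11 likewise covers both GRMZM2G037413 and GRMZM2G055795. CesA-3, CesA-5, and cesa10 and CesA12, the latter pair being secondary wall subunits, were not called, at -0.07, -0.14, 0.08 and 0.12. In the expansins, EXPA5 at -1.15 ± 0.16 and expa2 at -0.32 ± 0.10 were called lower. So were expB4 at -1.21 ± 0.22 and expB6 at -1.59 ± 0.44 of the beta class, whereas expA4 at 0.12, expa1 at -0.53 and expB3 at -0.34 were not called. xet1 did not pass the filter in any fit.

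In Kn1-N/+ against +/+ leaf, 0 of the 19 were called by edgeR or DESeq2, with a median of -0.13 (all genes 0.0022). Unadjusted edgeR p was under 0.05 for 5 of the 19, beside 1561 of 22071 genes. In Kn1-N/Kn1-N against Kn1-N/+, 8 of 19 were called lower and 0 higher, beside 3.12 and 1.64% of all genes, with a median of -0.32 (all genes 0.0030). Without homozygote 1, homozygote 2 or heterozygote 1, that count was 3, 1 or 5. CesA-7 (-0.47 ± 0.07, edgeR adjusted p = 0.0023), CesA-8 (-0.39 ± 0.06, adjusted p = 0.0028) and the alpha-expansin EXPA5 (-1.02 ± 0.17, adjusted p = 0.0039) had the smallest p. These leaf contrasts share libraries with those on which CesA-4, CesA-2 and xth1 were picked.

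**Figure D4:**
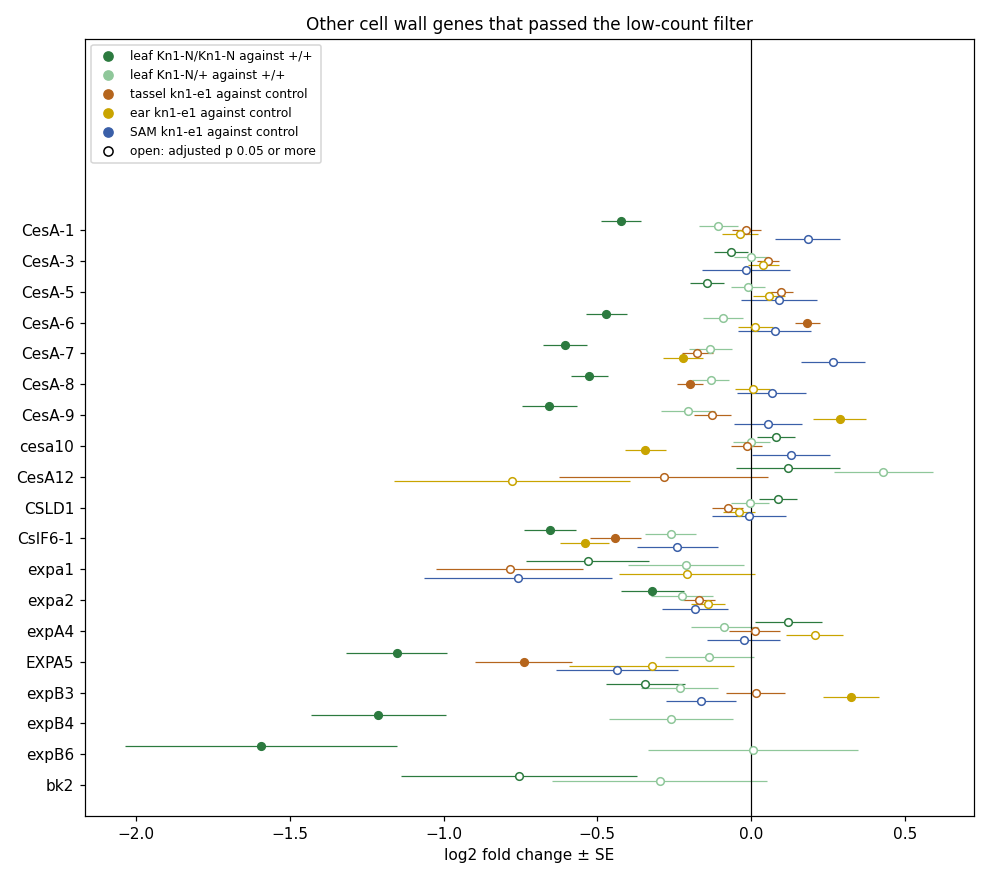
Log2 fold change ± SE of 19 other cell wall genes in 5 genotype comparisons; filled circles passed an edgeR adjusted p of 0.05 and open ones did not, and a comparison is missing where the gene did not pass the low-count filter. In Kn1-N/Kn1-N leaf 10 filled circles lie below 0 and 0 above, whereas in tassel and ear filled circles lie on both sides.

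In the kn1-e1 tissues these other genes were called in both directions or not at all. In tassel 16 were tested, 3 were lower and 1 was higher, beside 5.55 and 2.34% of all genes, with a median of -0.10 (all genes 0.0051). CslF6-1 (-0.44 ± 0.08, edgeR adjusted p = 0.0059), EXPA5 (-0.74 ± 0.16, adjusted p = 0.012) and CesA-8 (-0.20 ± 0.04, adjusted p = 0.014) were lower, and CesA-6 (0.18 ± 0.04, adjusted p = 0.017) was higher, a call lost in 1 fit of all 20 libraries (edgeR adjusted p = 0.095). The lower count was 6 without mutant 2 and 1 without mutant 3 or control 2, and the higher count was 0 without control 2 or 3. In ear, of 16 tested, 3 were lower and 2 higher, beside 10.4 and 8.21% of all genes, with a median of -0.04 (all genes 0.0086).

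The ear genes called lower were CslF6-1 (-0.54 ± 0.08, edgeR adjusted p = 0.00049), cesa10 (-0.34 ± 0.07, adjusted p = 0.0031) and CesA-7 (-0.22 ± 0.07, adjusted p = 0.029). Called higher were the beta-expansin expB3 (0.32 ± 0.09, edgeR adjusted p = 0.024) and CesA-9 (0.29 ± 0.09, adjusted p = 0.034). The secondary wall list, which also holds cesa10, summed to 41.1 to 43.9 CPM in kn1-e1 ears against 53.2 to 56.0 in controls. With DESeq2 the ear calls of CesA-7, CesA-9 and expB3 were lost (adjusted p of 0.19, 0.22 and 0.21), and the lower count was 1 without control 2, while the higher count was 0 without either control, 1 without mutant 1 and 4 without mutant 2. In SAM 0 of 15 were called by edgeR or DESeq2, with a median of -0.01 (all genes -0.0026). Unadjusted edgeR p was under 0.05 for 3 of the 15, beside 981 of 20748 genes.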

How the data were processed

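The authors deposited a table of raw read counts, with 39656 genes as its rows and the 20 libraries as its columns. The submitters' processing notes name CASAVA 1.8, TopHat 1.2.0, HTSeq and DESeq 1.4.1 without their roles; the genome build, annotation and the handling of reads that match several genes are not given in the sources used here. Per the labels' protocols, 1 ug of Trizol RNA went into TruSeq libraries with 13 PCR cycles, a kit that keeps no strand.

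Counts were fitted here with edgeR 4.0.16 in R 4.3.3 (TMM scaling; genes kept by filterByExpr at a minimum count of 10; quasi-likelihood F test), separately for leaf, tassel, ear and SAM, with 3, 4, 2 and 2 residual degrees of freedom, in 1 fit of 14 libraries for differences between tissues, and in 1 fit of 20 for control tissues. A gene was called when its p, adjusted by Benjamini-Hochberg over the whole table tested, was below 0.05. SEs come from the F statistic and are approximate. All 5 genes passed the filter in leaf, ear and the joint fits, and xth1 did not in tassel or SAM; contrasts with a group that a gene was picked on, and xth1 in the joint fits, were not tested. Alternatives were DESeq2 1.42.0, library totals, no filter, a replicate block, 1 fit of all libraries, and each library left out.

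Gene names come from RefSeq (Zm-B73-REFERENCE-NAM-5.0), where 18774 IDs (47.3%) were found. The members, lists and tests were chosen with earlier results of these data known. Named genes are the 5 members, kn1, the 3 most correlated profiles per member, and, from the cell wall lists, up to 3 called genes by smallest p per comparison and direction; other list genes named in leaf were added after their values were seen. Pollen beta-expansins (4 listed) were at 0 in leaf, tassel and ear and at most 0.290 CPM summed in SAM.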

Additional observations from a re-analysis of the deposited data

How the results depend on the processing

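Precision was limited by the 2 or 3 libraries per group and, for xth1, by counts of 1 to 111. In leaf Kn1-N/Kn1-N against +/+, expB2 and expB8 stayed called with scaling by library totals, DESeq2, no filter, a replicate block and 1 fit of all libraries (adjusted p from 0.0052 to 0.016 for expB2 and from 0.0022 to 0.047 for expB8). Scaling by library totals turned the sign of uncalled values, to 0.032 for CesA-2 and 0.038 for expB8 in ear, -0.0047 for CesA-4 in SAM, -0.0276 for CesA-4 in SAM minus tassel (-0.0025 with no filter), -0.11 for expB2 in leaf against SAM (-0.0019 with no filter) and 0.0162 for CesA-2 in SAM against ear. The described expB8 excess in leaf over tassel was 0.20 with library totals. With no filter, CesA-2 in SAM minus tassel (0.35, adjusted p = 0.025) and expB8 in SAM minus ear (-0.34, adjusted p = 0.042) were called. The causes were not tested.

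Counts of calls over all genes moved by more than 1.5 times with DESeq2 in Kn1-N/Kn1-N against +/+ (2329 for 4139) and against Kn1-N/+ (589 for 1049) and in ear (1783 for 3955). Without a filter they moved in SAM (111 for 34), ear minus tassel (2151 for 1169), SAM minus tassel (857 for 265) and SAM minus ear (1970 for 1224), and with 1 fit of all libraries in SAM (64). Library totals moved the split of calls in Kn1-N/Kn1-N against +/+ to 1528 higher and 2586 lower (from 2022 and 2117), in Kn1-N/Kn1-N against Kn1-N/+ to 271 and 821 (from 361 and 688), in ear to 2668 and 1541 (from 1748 and 2207), in ear minus tassel to 861 and 280 (from 668 and 501), in SAM minus tassel to 145 and 117 (from 183 and 82) and in SAM minus ear to 347 and 863 (from 750 and 474).

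The labels do not say whether a replicate number marks a shared day or plant. Deviations of same-numbered libraries from their group means correlated at -0.185 to 0.0774. In leaf, ear and SAM, groups of 2 libraries have deviations that mirror each other, so each pair of groups gives 1 value. These correlations therefore cannot settle whether the libraries are paired. A replicate block changed the counts of calls to 72 in SAM, 776 in ear minus tassel, 170 in SAM minus tassel and 633 in SAM minus ear. In SAM, where the correlation was -0.185, a block with crossed numbers, added after seeing the data, gave 105 calls.

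With 1 library left out, calls over all genes ran from 1061 to 2197 in Kn1-N/Kn1-N against +/+, 166 to 3105 against Kn1-N/+, 8 to 628 in Kn1-N/+ against +/+, 884 to 2228 in tassel, 1167 to 5898 in ear, 48 to 1746 in SAM, 373 to 1179 in ear minus tassel, 105 to 1644 in SAM minus tassel and 378 to 2191 in SAM minus ear. A group cut to 1 library was assumed to vary like the others. Log2 values that changed sign in these fits ran from -0.0139 to 0.0269 (tassel), -0.0407 to 0.1131 (ear), -0.1119 to 0.1437 (SAM), -0.0533 to 0.0975 (ear minus tassel), -0.1207 to 0.1101 (SAM minus tassel) and -0.1421 to 0.0887 (SAM minus ear) for CesA-4. For CesA-2 they ran from -0.0986 to 0.0452 in ear, -0.006 to 0.1345 in ear minus tassel, -0.1322 to 0.0597 in SAM against tassel, -0.1212 to 0.0706 in SAM against ear and -0.0098 to 0.0623 in tassel against ear. They ran from -0.1548 to 0.2235 for xth1 and -0.0558 to 0.0183 for expB8 in ear, -0.0693 to 0.0786 for expB2 in leaf against SAM, and, for expB8, -0.2232 to 0.3162 in SAM minus tassel, -0.4384 to 0.114 in SAM against tassel and -0.2481 to 0.3042 in SAM against ear.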
